A study of Mus musculus with 1073 samples.

Results

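At E8.5 the yolk sac holds haematopoietic progenitor cells (HPC) that carry the endothelial cadherin CDH5, as the surrounding endothelium does, and differ from it in the gate by 1 surface protein, CD41. The populations compared were E8.5 HPC, sorted as CDH5+ CD41+ (89 cells), and E8.5 endothelium (Endo), sorted as CDH5+ CD41- (79 cells). Cells were chosen by these sort labels alone, which gave 168 of the 926 cells that passed the authors' filter in the whole series. Both came from yolk sacs of C57BL/6 embryos at embryonic day 8.5, and the labels name no treatment or transgene. Both gates also excluded TER119+ red cells. CDH5 is the adhesion protein of endothelial junctions, and CD41 is the integrin alpha chain encoded by *Itga2b*. The labels call the CD41+ cells erythro-myeloid progenitors (EMP) or HPC. Single cells of both populations were caught on microfluidic chips with 96 capture sites, made for cells of 10 to 17 µm.

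In the yolk sac, blood cells arise from endothelium-like cells that switch on the transcription factor RUNX1 and its targets GFI1 and GFI1B, lose junction proteins and round up, a process known as endothelial-to-haematopoietic transition. The first EMPs leave this wall as KIT+ CD41+ cells that can form erythroid, megakaryocytic and myeloid progeny. Factors of the ETS, SCL (TAL1), LMO2 and GATA2 group work in both lineages. The question put to the data was therefore which genes both populations shared, which were high in endothelium and low in HPC, and which were high in HPC and low or missing in endothelium.

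Each cell was sequenced to 883020 to 2586615 counts in HPC and 1118365 to 2730963 in Endo, and 5319 to 9731 (median 9053) and 6710 to 9634 (median 8437) genes were detected in a cell, respectively. Mitochondrial genes took a median of 3.18% of counts in HPC (up to 35.2%) and 2.46% in Endo (up to 22.2%). Each population was 1 capture sequenced in 1 lane of the same flow cell, lane 5 for HPC and lane 2 for Endo, and 73 pairs of index sequences were used in both lanes. The labels name no embryo or pool for a cell, so each population counts as 1 sample. Capture, lane and population cannot be told apart, no test was made, and values are levels of the 2 cell groups with the spread over cells. At least 5 counts of *Xist* together with at least 5 of 4 Y-linked genes occurred in 40 HPC and 59 Endo cells, and at least 50 of each in 11 and 15 cells. The part of these wells in the results was not tested, and the counts of genes are given again without the cells at 5 counts.

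Levels are CPM, the authors' read counts scaled in each cell by a size factor. They are not per length, so they compare 1 gene between cells but not different genes. A gene was evaluated if it had a mean of 10 CPM or more and was detected (1 count or more) in at least 25% of the cells of at least 1 population. Of 15967 genes, 9271 were evaluated. Ratios are log2 of mean CPM + 1 in HPC over that in Endo, and the median over all evaluated genes was 0.04. A gene was called higher in 1 population at a 4-fold difference. Genes were called held in common when they were found in at least 50% of the cells of both and differed by less than 2-fold.

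By these rules 5632 genes (60.7%) were held in common, 633 (6.83%) were 4-fold or more higher in Endo and 260 (2.8%) were 4-fold or more higher in HPC. The other 2746 genes lay between. In either direction 893 genes (9.63%) differed 4-fold or more, and 29.1% of them were higher in HPC. When the 40 HPC and 59 Endo cells with transcripts of both sexes were left out, 508 genes were higher in HPC, 801 in Endo and 5267 were in common, so 38.8% of the 4-fold differences were higher in HPC, with only 20 Endo cells left to set their level. Detection was less one-sided in the Endo set: 176 of its 633 genes (27.8%) were found in at least 50% of HPC, against 14 of 260 (5.38%) for the HPC set in Endo. No count in any Endo cell was recorded for 34 genes of the HPC set, whereas 7 genes of the Endo set had none in HPC. Genes found in every cell of both populations numbered 1182. For no evaluated gene (0 of 9271, 0%) did the levels of all HPC lie apart from those of all Endo cells. Across genes, log2 of mean CPM + 1 in the populations correlated with r = 0.754 (Pearson, 9271 genes, which are not independent replicates).

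**Figure D1:**
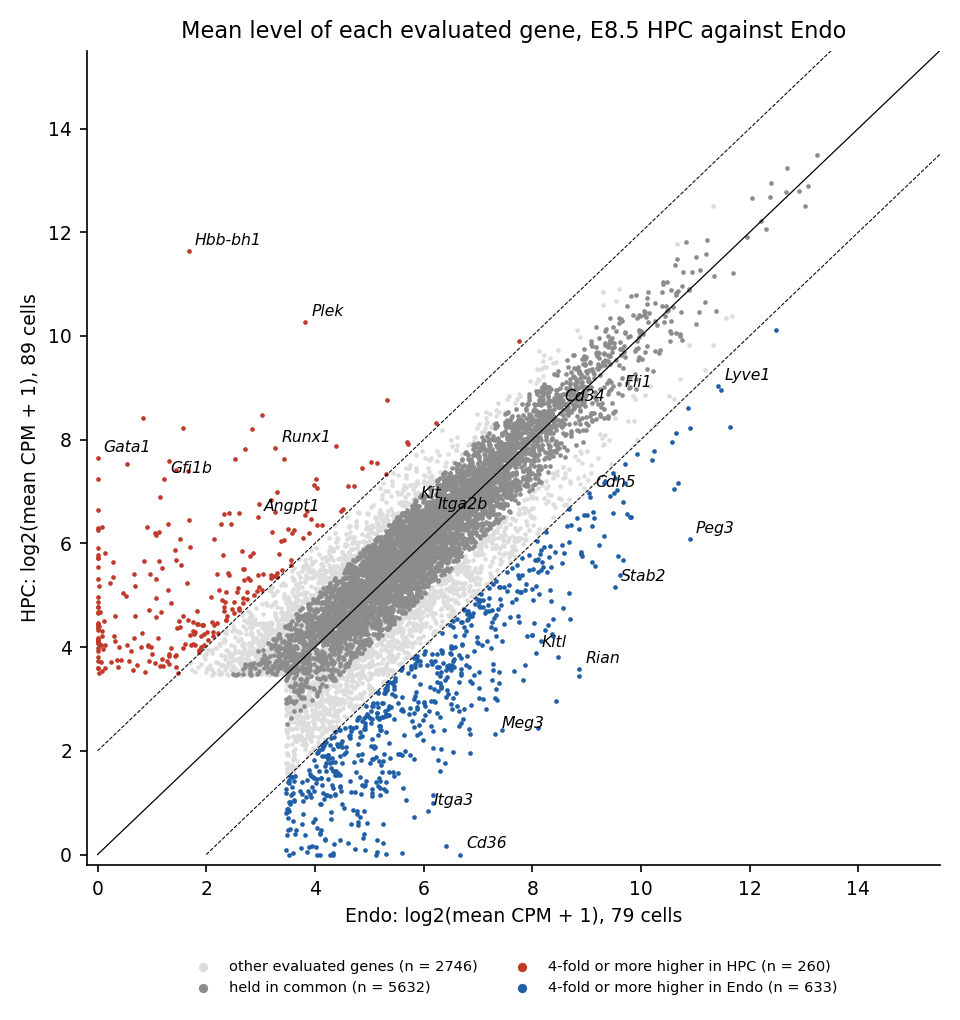
Mean level of each evaluated gene in E8.5 HPC (vertical axis) against E8.5 Endo (horizontal axis), both as log2(mean CPM + 1); solid line, equal levels, dashed lines, 4-fold differences. The 260 red genes include *Hbb-bh1*, *Plek* and *Gata1*, the 633 blue genes include *Cd36*, *Peg3* and *Lyve1*, and *Itga2b*, *Fli1*, *Kit* and *Cd34* lie near the line.

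The gates were checked against their own transcripts. *Cdh5* was found in 83 of 89 HPC and 79 of 79 Endo cells, and its mean was 124.3 against 528 CPM (log2 ratio -2.08). HPC ranged from 0 through a median of 79.6 to 1219 CPM and Endo from 60.1 through a median of 461 to 1565 CPM. Of the HPC, 39 lay below the lowest Endo cell and the other 50 were inside the Endo range. *Itga2b*, the gene of the protein that separated the gates, differed little between them. It was found in 86 of 89 HPC and 72 of 79 Endo cells, at means of 92.4 against 69.8 CPM (log2 ratio 0.40), which placed it among the genes held in common. HPC ranged from 0 through a median of 62.5 to 803 CPM and Endo from 0 through a median of 23.2 to 752 CPM, and only 1 HPC exceeded the highest Endo cell. Thus the medians differed more than the means, although 57 of 79 Endo cells had 10 counts or more. In the 20 Endo cells without transcripts of both sexes *Itga2b* was found in 18, and the log2 ratio was 1.06, past the 2-fold line that defined genes in common. *Ptprc* (CD45, the pan-leukocyte phosphatase), which was not part of the gate, was found in 22 of 89 HPC and in 0 of 79 Endo cells (3.80% at the floor of 3 counts, and up to 4.56% by the exact 95% interval).

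The 250 bases before the start of *Itga2b* (RefSeq, GRCm38.p6, chr11:102469884-102470133, minus strand) are shown because this promoter belongs to the gate gene whose transcript was present on both sides of the gate. Capitals mark 2 runs of the ETS letters AGGAAG, the nearer beginning 43 bases before the RefSeq start. The GENCODE annotation starts this minus-strand gene further upstream, at 102470122, so both marked runs lie inside the gene there.
Itga2b: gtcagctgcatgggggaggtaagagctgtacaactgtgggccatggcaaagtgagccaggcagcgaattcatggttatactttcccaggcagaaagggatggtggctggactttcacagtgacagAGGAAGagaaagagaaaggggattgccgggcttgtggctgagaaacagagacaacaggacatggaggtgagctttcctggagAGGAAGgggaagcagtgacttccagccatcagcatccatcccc
A match to such letters is a description and not a binding site. ETS letters (CGGAAG or AGGAAG, either strand) are frequent, occurring in 46.5% of all 32851 RefSeq promoters between 250 bases before and 50 bases after the start.

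Defining endothelial markers fitted the label of Endo. *Pecam1*, *Tek*, *Kdr*, *Aplnr*, *Plvap* and *Ramp2* were each found in 79 of 79 Endo cells, *Emcn* in 69 and *Sox7* in 47. Of the progenitor markers in HPC, *Runx1* and *Adgrg1* were found in 89 of 89 cells, *Itga2b* and *Gata2* in 86, *Kit* in 84, *Myb* in 81, *Gfi1b* in 75, *Gata1* in 69 and *Klf1* in 32. Not every marker separated the populations. *Itga2b*, the gate gene, was also found in 91.1% of Endo cells and *Kit* in 89.9%. *Kdr* was found in 96.6% of HPC and *Tek* in 97.8%. *Gata1*, *Myb* and *Gfi1b* were found in 0%, 1.27% and 2.53% of Endo cells. Of 8 macrophage markers 2 were evaluated, *Csf1r* (higher in HPC) and *Mrc1* (higher in Endo), *C1qa* and *Adgre1* had no count in either population, and *C1qb*, *C1qc* and *Cx3cr1* were each found in 3 HPC and no Endo cell. Summed with *Mrc1*, which Endo carried, the list ran from 0 through 32.4 to 2476 CPM in HPC and from 163.2 through 1372 to 3976 CPM in Endo. Of the visceral endoderm list 5 genes were in the table and 0 were evaluated, with *Ttr* found in 5 of 89 HPC and 12 of 79 Endo cells and *Trf* in 35 of 89 HPC and 16 of 79 Endo cells, and its summed level ran from 0 through 0 to 62.1 CPM in HPC and from 0 through 0 to 134.8 CPM in Endo. Of 14 mesenchymal markers, *Col1a2*, *Acta2* and *Tagln* were evaluated and higher in Endo (8.65 against 39.3 CPM, 1.92 against 21.0 CPM and 1.19 against 32.1 CPM), while *Col1a1*, *Pdgfra* and *Pdgfrb* stayed below 2 CPM in both. The summed level of that list ran from 0 through 5.00 to 398 CPM in HPC and from 0 through 74.5 to 1829.7 CPM in Endo. Whether other cells in the Endo gate carried these transcripts was not tested.

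Regulators that act in both lineages were shared at a rate near that of all genes. Of the 13 shared haemato-endothelial transcription factors, all evaluated, 9 were held in common (against 60.7% of all evaluated genes), 1 was higher in Endo and 0 were higher in HPC (median log2 ratio 0.87). *Fli1*, an ETS factor needed for both lineages, was found in every cell, ranging from 14.2 through a median of 397 to 2209 CPM in HPC and from 107.01 through a median of 662 to 1617 CPM in Endo. The ranges overlapped over most cells, with 6 HPC below the lowest Endo cell and 2 above the highest. *Tal1*, which opens the haemato-endothelial programme, averaged 79.6 against 43.2 CPM, and its partner *Lyl1* 28.1 against 14.9 CPM. *Gata2*, a zinc finger factor of progenitors and endothelium, was slightly lower in HPC (52.0 against 74.3 CPM), as were *Hhex* (113.4 against 204 CPM) and *Erg* (16.5 against 27.7 CPM). *Meis1*, a homeobox factor, averaged 519 against 289.8 CPM, and *Etv6* 112.9 against 56.2 CPM, both within 2-fold. *Lmo2*, *Ldb1* and *Mef2c* lay between 2-fold and 4-fold higher in HPC, with *Lmo2*, the bridging partner of TAL1, at 85.6 against 26.2 CPM in 89 of 89 HPC and 73 of 79 Endo cells. The exception was *Sox7*, whose product supports endothelial identity: it was found in 11 of 89 HPC and 47 of 79 Endo cells at 4.14 against 38.8 CPM.

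*Kit*, the receptor of stem cell factor, was found in 84 of 89 HPC and 71 of 79 Endo cells (107.5 against 55.6 CPM), and 6 HPC exceeded the highest Endo cell. *Cd34*, a sialomucin of endothelium and progenitors, averaged 394 against 354 CPM and *Cd47*, an inhibitory signal to phagocytes, 332 against 373 CPM. All 28 S phase genes and all 24 mitosis genes were evaluated, and 26 and 22 of them were held in common, with medians of 0.44 and 0.14 against 0.04 over all genes. Summed S phase levels ran from 3025 through 7530.4 to 13732 CPM in HPC and from 2990.4 through 5533 to 13043 CPM in Endo, so both populations held cells across the same range. Of the 10 genes of the embryonic timing list, 8 were in common, including *Lin28b* (166.98 against 103.8 CPM), *Hmga2* (467 against 502 CPM) and *Igf2bp1* (301 against 235 CPM), RNA and chromatin proteins of early embryonic cells. Of the rest, *Dnmt3b*, a DNA methyltransferase, was 4-fold or more higher in HPC (319.9 against 74.1 CPM). The last, 1 gene, lay between 2-fold and 4-fold higher in HPC. Glycolysis genes were in common in 12 of 17 cases, near the 60.7% of all evaluated genes, with *Aldoa* at 1830.3 against 1338 CPM and *Pkm* at 1435 against 1058 CPM.

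The ribosome biogenesis list had a median of 1.03 over 19 evaluated genes, and 10 of them were 2-fold or more higher in HPC, against 10.4% of all evaluated genes. *Wdr12*, a factor of large subunit maturation, averaged 289 against 79.6 CPM, *Dkc1*, the pseudouridine synthase, 797 against 297 CPM, and nucleolin (*Ncl*) 3494 against 1616 CPM. *Ncl* was found in every cell of both. None reached 4-fold. In the cell cycle list, *Ccnd1* was 4-fold or more higher in Endo (12.2 against 91.6 CPM, found in 45 of 89 HPC and 79 of 79 Endo cells), whereas *Ccnd2* (306 against 161.4 CPM) and *Ccnd3* (232 against 207 CPM), the other D-type cyclins, were in common and *Cdk6*, their kinase partner, was 219 against 74.9 CPM. The D-type cyclins did not differ in a single direction.

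**Figure D2:**
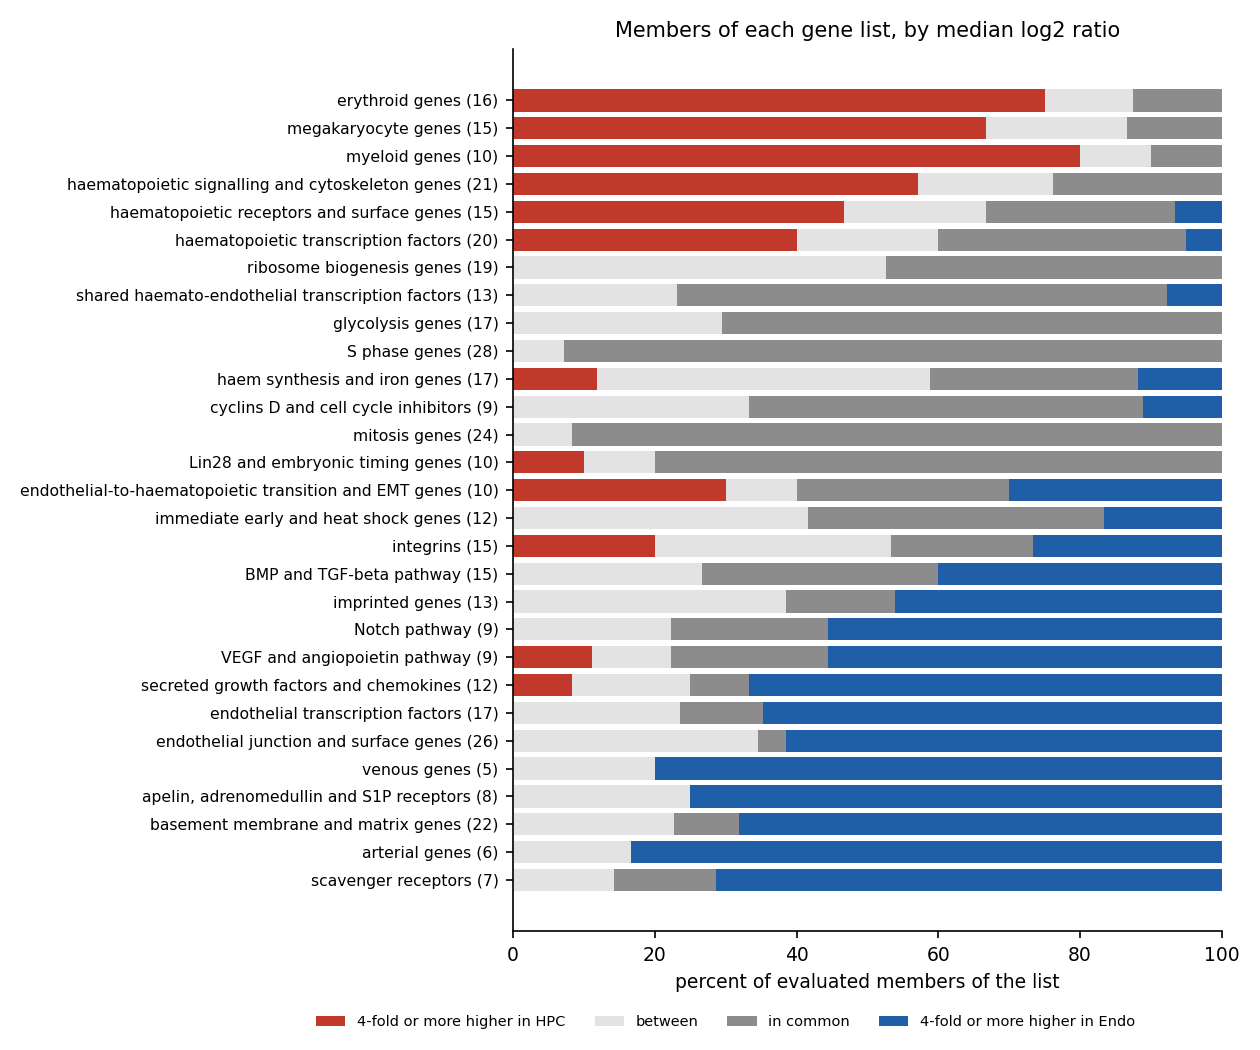
Percent of the evaluated members of each gene list with at least 5 of them (number in brackets) that were 4-fold or more higher in HPC (red), between (pale grey), in common (dark grey) or 4-fold or more higher in Endo (blue), ordered by median log2 ratio. Erythroid, megakaryocyte and myeloid lists stand at the top with 12 of 16, 10 of 15 and 8 of 10 members higher in HPC, and scavenger receptor and arterial lists at the bottom with 5 of 7 and 5 of 6 higher in Endo.

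Genes low in HPC and high in Endo covered the surface of the endothelium. Of 26 evaluated junction and surface genes, 16 were 4-fold or more higher in Endo, against 6.83% of all evaluated genes, 25 were 2-fold or more higher (17.1% of all) and 0 were higher in HPC (median log2 ratio -2.33). *Mcam*, an adhesion molecule, differed most (4.39 against 113.5 CPM, found in 18 of 89 HPC and 77 of 79 Endo cells). *Gpr182*, an orphan receptor of endothelium, was at 7.01 against 136.5 CPM and *Emcn*, a sialomucin of capillaries and veins, at 8.92 against 167.6 CPM. For *Emcn*, 9 of 89 HPC had any count. These genes were found in a minority of HPC, whereas others were widespread in HPC at lower levels than in Endo. *Cd93*, a C-type lectin receptor, was found in 83 of 89 HPC and 79 of 79 Endo cells at 248 against 1527 CPM, and *Esam* (108.1 against 393 CPM) and *Egfl7* (103.6 against 342 CPM) differed less than 4-fold. *Cd34* was the 1 member in common.

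In the VEGF and angiopoietin list 5 of 9 evaluated genes were higher in Endo, 1 was higher in HPC and 2 were in common. *Kdr*, the main VEGF receptor, ranged from 0 through a median of 105.9 to 1140.2 CPM in HPC and from 82.3 through a median of 636 to 4374 CPM in Endo, and was found in 86 of 89 and 79 of 79 cells. *Flt1*, a decoy VEGF receptor, averaged 53.4 against 484 CPM and *Tek*, the angiopoietin receptor, 162.9 against 717 CPM. The ligand of TEK, *Angpt1*, ran the other way (89.5 against 6.73 CPM, found in 66 of 89 HPC and 7 of 79 Endo cells). Its antagonist *Angpt2* (15.7 against 20.5 CPM) and the receptor relative *Tie1* (29.5 against 47.0 CPM) were in common. Receptor was thus higher in Endo and ligand in HPC. *Kitl*, the ligand of KIT, had the opposite arrangement: it averaged 13.8 against 267 CPM and was found in 19 of 89 HPC and 73 of 79 Endo cells, while *Kit* itself was in common.

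Notch, arterial and venous genes were low in HPC, and 5 of 9 evaluated Notch genes were higher in Endo (median -2.12). *Dll4*, the arterial Notch ligand, averaged 2.02 against 42.3 CPM, the receptor *Notch1* 3.46 against 40.1 CPM and the target *Hes1* 1.59 against 15.3 CPM. *Notch2* differed from them at 41.9 against 20.3 CPM, and *Rbpj*, the DNA-binding partner of Notch, was in common (28.2 against 14.7 CPM). Of 6 evaluated arterial genes 5 were higher in Endo, and of 5 venous genes 4. *Efnb2* (13.1 against 110.3 CPM) and *Nr2f2* (1.39 against 32.1 CPM), which mark arterial and venous endothelium, were both in the set. Genes of both vessel types were thus lower in HPC. *Gja4*, an arterial connexin, was similar in mean (17.4 against 15.8 CPM) but found in 42 of 89 HPC and 11 of 79 Endo cells.

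Of 8 evaluated apelin, adrenomedullin and S1P genes 6 were higher in Endo and 0 in HPC (median -2.52). *Aplnr*, the apelin receptor, averaged 17.8 against 255 CPM and *Ramp2*, the partner of the adrenomedullin receptor, 43.9 against 287 CPM. The receptor *Calcrl* itself was found in all 89 HPC (439.6 against 1553 CPM), and *Ece1*, which matures endothelin, was found in 85 of 89 HPC and 79 of 79 Endo cells (183.6 against 835 CPM). In the BMP and TGF-beta list 6 of 15 were higher in Endo, 5 were in common and 0 were higher in HPC (median -1.85). *Acvrl1*, the endothelial type I receptor, averaged 2.79 against 47.8 CPM, *Tgfbr2* 16.3 against 142.8 CPM and the target *Id3* 45.6 against 323 CPM. *Bmpr1a* (30.2 against 33.4 CPM), *Tgfbr1* (138.8 against 77.9 CPM) and the signal carrier *Smad5* (65.8 against 68.8 CPM) were in common, so receptors of the same pathway differed by member.

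Of 17 evaluated endothelial transcription factors, 11 were higher in Endo, 2 were in common (*Erg* and *Hhex*) and 0 were higher in HPC (median -2.33). *Ets1* averaged 279 against 1605 CPM, and was found in 86 of 89 HPC and 79 of 79 Endo cells. *Sox17*, which supports arterial and haemogenic endothelium, was found in 2 of 89 HPC and 59 of 79 Endo cells and was 1 of the genes on in Endo and nearly absent from HPC. *Foxf1*, a forkhead factor of extraembryonic mesoderm and its endothelium, was at 1.26 against 28.0 CPM, *Epas1*, an oxygen-sensing factor, at 1.45 against 35.5 CPM and *Bcl6b* at 10.1 against 120.5 CPM. All 3 were found in fewer than 25% of HPC. *Etv2*, which starts the endothelial programme, stayed below the level needed for evaluation and was found in 54 of 89 HPC and 14 of 79 Endo cells.

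Scavenger receptors gave the widest gap of the endothelial lists (median -3.56, 5 of 7 higher in Endo). *Cd36* (GRCm38, chr5:17781690-17888801, minus strand), a fatty acid and thrombospondin receptor, had no count in 89 HPC (3.37% at the floor of 3 counts, and up to 4.06% by the exact 95% interval), against 61 of 79 Endo cells. In Endo it ranged from 0 through a median of 14.8 to 1493 CPM, at least 4415-fold higher than in HPC at a floor of 3 counts over the group. *Stab2*, a receptor for hyaluronan, ranged from 0 through a median of 0 to 931 CPM in HPC and from 20.0 through a median of 664 to 2589 CPM in Endo. Of the HPC, 73 lay below the lowest Endo cell. *Lyve1*, also a hyaluronan receptor, was lower in HPC (525 against 2754 CPM) but was found in 77 of 89 cells. Without the cells with transcripts of both sexes the HPC mean was 289 CPM for *Lyve1* and 13.4 CPM for *Stab2*, against 34.7 in all HPC. *Mrc1*, the mannose receptor, which macrophages also use, averaged 131.5 against 1559 CPM. *Scarb1*, a lipoprotein receptor, was in common (96.6 against 141.4 CPM).

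The promoter of *Stab2* (RefSeq, GRCm38.p6, chr10:87007943-87008192, minus strand) is shown for this set, with RUNX letters (TGTGGT) at 73 bases and ETS letters (CTTCCT, the reverse complement of AGGAAG) at 40 bases before the RefSeq start in capitals. The GENCODE annotation starts this gene further upstream, at 87008025, so the marked letters lie inside the gene there. Other promoters of genes higher in Endo were searched in the same way. Those of *Cd36*, *Kdr* and *Fermt2* held no ETS or RUNX letters before the start. Promoters of *Peg3*, *Vim* and *Rian* held ETS letters, and a *Meg3* promoter held RUNX letters.
Stab2: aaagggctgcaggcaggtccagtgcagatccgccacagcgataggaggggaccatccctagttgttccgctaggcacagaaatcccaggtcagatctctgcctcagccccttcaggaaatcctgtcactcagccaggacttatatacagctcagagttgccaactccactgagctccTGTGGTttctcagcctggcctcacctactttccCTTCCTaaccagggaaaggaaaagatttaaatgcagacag
RUNX letters, TGTGGT on either strand, occurred in 16.8% of all RefSeq promoters.

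Of 22 evaluated basement membrane and matrix genes 15 were higher in Endo and 0 in HPC (median -2.67). *Col4a1*, the main collagen of vessel basement membrane, averaged 48.8 against 549 CPM, *Nid1* 93.8 against 861 CPM, *Hspg2* (perlecan) 11.7 against 153.3 CPM and *Lama4*, the laminin chain of vessels, 4.80 against 102.3 CPM. *Hapln1*, a hyaluronan link protein, stood apart because it was in common (866 against 980.3 CPM) and found in every cell. *Mmrn1*, a protein of platelets and endothelium, was higher in HPC without reaching 4-fold (163.9 against 42.2 CPM). Among secreted factors 8 of 12 were higher in Endo, with *Igf2* at 55.4 against 382 CPM, *Apln*, the ligand of APLNR, at 2.94 against 91.9 CPM and *Bmp4* at 9.54 against 43.4 CPM. *Pf4*, the platelet chemokine, was higher in HPC (41.5 against 3.57 CPM).

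Integrins and their activators differed in both directions, with 3 of 15 evaluated genes higher in HPC, 4 in Endo and 3 in common. Over all evaluated genes the shares were 2.8%, 6.83% and 60.7%. *Itgb3*, the partner of CD41, ranged from 1.54 through a median of 147.9 to 969 CPM in HPC and from 0 through a median of 0 to 41.9 CPM in Endo. It was found in 89 of 89 HPC and 8 of 79 Endo cells, and 75 HPC exceeded the highest Endo cell. *Itgb2*, the leukocyte beta chain, was found in 76 of 89 HPC and 3 of 79 Endo cells (35.2 against 0.612 CPM). *Itga3* (0.788 against 66.4 CPM) and *Itga1* (3.08 against 79.0 CPM), laminin and collagen receptors, and *Itgb5* (3.66 against 32.1 CPM) were higher in Endo. The kindlins, which switch integrins on, were split too: *Fermt3*, the blood form, averaged 432 against 39.4 CPM and *Fermt2*, the form of adherent cells, 55.7 against 343 CPM. *Tln1* (talin) was in common (391 against 437 CPM) and found in every cell. *Fermt3* was however found in 38 Endo cells, and its ranges overlapped, with 37 HPC above the highest Endo cell.

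Transcription factors were among the genes higher in HPC. Both populations were sorted at the same stage, so a higher or lower level gives no direction of change between them. Of 20 evaluated haematopoietic factors 8 were 4-fold or more higher in HPC (*Runx1*, *Gfi1b*, *Myb*, *Gata1*, *Nfe2*, *Ikzf1*, *Ikzf2* and *Bcl11a*), against 2.8% of all evaluated genes, 7 were in common and 1, *Ets1*, was higher in Endo. *Gata1* (GRCm38, chrX:7959260-7978071, minus strand), the erythroid and megakaryocytic regulator, ranged from 0 through a median of 132.2 to 722 CPM in HPC and had no count in Endo. It was found in 69 of 89 HPC (77.5%, exact 95% interval 67.4 to 85.7) and in 0 of 79 Endo cells. These intervals cover counting error only. At a floor of 3 counts, its level in HPC was at least 8967-fold higher. *Nfe2*, the factor of platelet and globin genes, likewise had no count in Endo and was found in 76 HPC.

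*Runx1* (chr16:92601466-92826149, minus strand) was not confined to HPC. It ranged from 6.46 through a median of 204 to 768 CPM in HPC and from 0 through a median of 0 to 204 CPM in Endo, and was found in all 89 HPC but also in 15 of 79 Endo cells. Of the Endo cells, 10 carried 10 counts or more, and 45 HPC lay within the Endo range. In the 20 Endo cells without transcripts of both sexes it was found in 7, with 10 counts or more in 4. *Gfi1b*, a repressor directly below RUNX1, was found in 75 of 89 HPC and 2 of 79 Endo cells and ranged from 0 through a median of 100.99 to 993 CPM in HPC, against from 0 through a median of 0 to 105.4 CPM in Endo. *Gfi1*, its relative, was scarce in both (1.18 against 0.00538 CPM). *Myb*, a factor of definitive progenitors, was found in 81 of 89 HPC and 1 of 79 Endo cells (39.9 against 0.212 CPM).

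Promoters of *Gfi1b* (chr2:28621983-28622232, minus strand) and *Fermt3* (chr19:7019470-7019719, minus strand) are shown for genes higher in HPC, from RefSeq on GRCm38.p6. Capitals mark GATA letters (TGATAA) at 120 bases before the start of *Gfi1b*, and RUNX letters (TGTGGT) at 61 and 24 bases before that of *Fermt3*. Other promoters of genes higher in HPC were searched in the same way. Those of *Plek*, *Alox5*, *Gata1* and *Runx1* held no GATA or RUNX letters before the start. Promoters of *Hba-x* and *Pla2g4a* held GATA letters, the latter at only part of its starts. The printed promoters are therefore examples with a match and do not stand for the whole set.
Gfi1b: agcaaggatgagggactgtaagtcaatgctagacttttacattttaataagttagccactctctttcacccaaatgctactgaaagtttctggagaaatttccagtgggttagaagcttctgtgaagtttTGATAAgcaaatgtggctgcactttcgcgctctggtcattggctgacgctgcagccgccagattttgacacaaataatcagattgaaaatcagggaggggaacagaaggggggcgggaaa
Fermt3: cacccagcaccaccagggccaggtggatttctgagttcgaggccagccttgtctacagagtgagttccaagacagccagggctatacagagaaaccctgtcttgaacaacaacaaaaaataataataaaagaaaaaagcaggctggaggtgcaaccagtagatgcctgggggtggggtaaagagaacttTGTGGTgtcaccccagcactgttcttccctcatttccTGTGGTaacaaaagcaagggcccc
Over promoters of the gene sets, GATA letters (AGATAA or TGATAA, either strand) occurred in 16.7% of 258 promoters of genes higher in HPC, 14.0% of 630 of genes higher in Endo, 10.1% of those of all evaluated genes and 18.6% of all promoters. RUNX letters stood at 15.1%, 12.9%, 11.9% and 16.8%, and ETS letters at 45.7%, 45.7%, 56.5% and 46.5%. SOX letters (ACAATG or ACAAAG) stood at 20.5%, 21.4%, 19.2% and 28.6% and KLF letters (CACCC) at 66.3%, 69.4%, 61.3% and 57.5%. The promoters of both 4-fold sets were thus close to each other in each motif, and matched genes numbered 188 of 260 and 445 of 633.

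**Figure D3:**
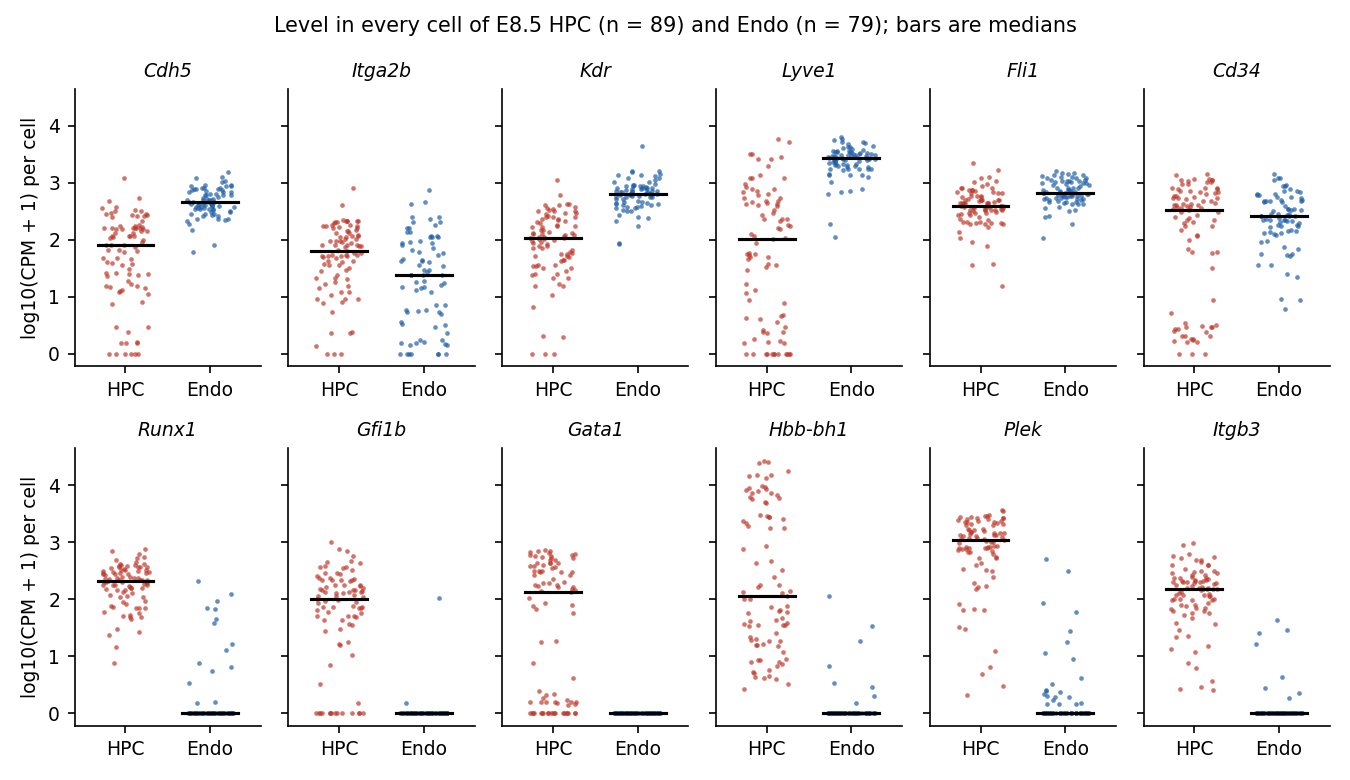
Level of 12 genes in every cell of E8.5 HPC (red, 89 cells) and Endo (blue, 79 cells), as log10(CPM + 1), with medians as bars. *Cdh5*, *Kdr* and *Lyve1* are lower in HPC with overlap, *Itga2b*, *Fli1* and *Cd34* overlap almost fully, and *Gata1* has no count in any Endo cell.

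Receptors and signalling genes of blood cells were next. Of 21 evaluated signalling and cytoskeleton genes 12 were higher in HPC and 0 in Endo (median 2.58, against 0.04 over all genes), and of 15 receptors and surface genes 7 and 1. *Plek* (pleckstrin, a protein kinase C substrate of platelets and leukocytes) ranged from 1.08 through a median of 1095 to 3658 CPM in HPC and from 0 through a median of 0 to 507 CPM in Endo. It was found in 22 Endo cells and 68 HPC exceeded the highest of them. Among the 20 Endo cells without transcripts of both sexes its mean was 0.0924 CPM, against 13.1 in all 79. *Sla*, an adaptor of lymphoid and myeloid cells, had no count in Endo and was found in 77 HPC, and *Rac2*, the blood form of Rac, was found in 69 of 89 HPC and 3 of 79 Endo cells. *Csf2rb*, the shared chain of the GM-CSF and IL-3 receptors, was found in 43 of 89 HPC and 0 of 79 Endo cells.

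Several blood signalling genes were not restricted to HPC. *Lyn*, a Src-family kinase, averaged 163.98 against 110.9 CPM, *Lcp1* 67.3 against 72.4 CPM, *Arhgdib*, a regulator of small GTPases, 254 against 323 CPM and *Inpp5d*, a lipid phosphatase, 77.3 against 53.6 CPM, all in common. *Arhgdib* was found in every cell of both. *Il6st*, the shared receptor of the IL-6 family, was the receptor higher in Endo (11.1 against 87.6 CPM). *Cd44*, the hyaluronan receptor of blood cells, was 4-fold or more higher in HPC (136.8 against 23.4 CPM) yet was found in 45 Endo cells.

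Erythroid genes had the highest list median. Of 16 evaluated 12 were higher in HPC and 0 in Endo (median 4.88), with summed levels from 78.9 through 1159 to 40376 CPM in HPC and from 4.53 through 349 to 1606 CPM in Endo. *Hbb-bh1*, the early embryonic beta-type globin, was found in 89 of 89 HPC and 8 of 79 Endo cells. HPC ranged from 1.61 through a median of 112.7 to 26745 CPM and Endo from 0 through a median of 0 to 112.4 CPM, so the HPC mean of 3191 CPM lay far above the HPC median. The log2 ratio was 9.96, and 9.03 without the cells with transcripts of both sexes. The 3 primitive globins together passed 1000 CPM in 32 HPC (36.0%) and 0 Endo cells, and lay under 100 CPM in 42 HPC. *Hba-x* had a mean of 341 and a median of 4.02 CPM in HPC. *Epor*, the erythropoietin receptor, was closer (32.3 against 10.9 CPM), and *Klf1*, the erythroid Krüppel-like factor, was found in 32 HPC and no Endo cell. The adult-type globins *Hba-a1* and *Hbb-bt* have near-identical copies, so their levels are uncertain. In E8.5 primitive erythroid cells (EryP, 66 cells) *Hbb-bh1* averaged 56134 CPM, in E8.5 megakaryocytes 22619 CPM and in E8.25 HPC 3675 CPM. The part of red cell RNA in these values was not tested.

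Haem and iron genes differed in both directions, with 2 of 17 evaluated higher in HPC and 2 in Endo. Over all evaluated genes these shares were 2.8% and 6.83%, so these are small counts. *Fech* (42.1 against 4.26 CPM) and *Alas2* (38.1 against 6.02 CPM), the last and first enzymes of haem synthesis in erythroid cells, were higher in HPC, while *Hmox1*, which breaks haem down, (6.03 against 57.9 CPM) and *Slc40a1* (ferroportin, 2.50 against 37.0 CPM) were higher in Endo. The ferritins *Fth1* and *Ftl1* were in common at 1003 against 1002 CPM and 519.7 against 538 CPM. *Tfrc*, the transferrin receptor, averaged 198.9 against 63.9 CPM.

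Of 15 evaluated megakaryocyte genes 10 were higher in HPC (median 3.93), including *Gp9*, a platelet receptor subunit found in 39 HPC and no Endo cell, *Tubb1*, the platelet tubulin, in 50 and none, and *Thbs1* in 65 and 2. *Clec1b*, the podoplanin receptor of platelets, was in common (33.4 against 33.6 CPM). Of 10 evaluated myeloid genes 8 were higher in HPC (median 3.82). *Lyz2* (lysozyme) was found in 53 HPC and no Endo cell, *Mpo* (myeloperoxidase) in 38 of 89 HPC and 4 of 79 Endo cells and *Csf1r*, the receptor of macrophage growth factor, in 35 of 89 HPC and 1 of 79 Endo cells. *Cebpa* was found in 3 HPC and *Elane* in none. *Csf1r* and *Gata1* were both detected in 23 HPC (25.8%, exact 95% interval 17.1 to 36.2), and both at 10 counts or more in 10. *Gata1* was found in 69 and *Csf1r* in 35 of 89 HPC, so the 23 shared cells can follow from each gene by itself. Wells with more than 1 cell were not told apart. Among lists whose median differed 2-fold or more, the myeloid list is the 1 whose median changed direction under a stricter filter. *Calr* (log2 ratio -0.97) was then its only member left.

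The genes present in at least 50% of one population and in under 5% of the other numbered 42 for HPC (0.453% of evaluated genes) and 19 for Endo (0.205%), or 38 and 39 without the cells with transcripts of both sexes. Among the 10 of the 42 with the highest mean in HPC were *Gucy1a3*, *Gata1*, *Hbb-y*, *Sla*, *Gfi1b*, *Alox5*, *Nfe2*, *Rac2* and *Plcg2*. *Gucy1a3*, a subunit of the nitric oxide receptor, was found in 75 of 89 HPC and 2 of 79 Endo cells and *Alox5*, a leukotriene enzyme, in 74 of 89 HPC and 2 of 79 Endo cells. *F10*, coagulation factor X, was found in 69 HPC and had no count in Endo. Of the 19, the 10 of highest mean in Endo were *B830012L14Rik*, *Cd36*, *Ccdc80*, *Itga1*, *Adamts5*, *Col14a1*, *Tnc*, *Smarca1*, *Disp2* and *Prlr*. *Adamts5*, *Col14a1* and *Tnc* are matrix proteases or components, and *Isl1*, a LIM factor, was found in 2 of 89 HPC and 49 of 79 Endo cells. *Il17rd*, a brake on FGF signalling, was found in 51 Endo cells and no HPC.

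The 25 genes with the largest ratios were taken among those with a mean of at least 100 CPM and found in at least 75% of the higher population. In HPC they ran from *Hbb-bh1* (9.96) to *Fam109b* (3.03). Beside those named above they held *P2ry14*, *Pla2g4a*, *Celf2*, *Adgrg1*, *Rab27b*, *Bin2*, *Ahi1*, *Mrvi1*, *Ptpn6*, *Tspan32* and *Mdm1*. *P2ry14* lies within *Med12l* on the other strand, and the strand setting of the count is not given in the sources used here. *Adgrg1*, an adhesion receptor, was found in 89 of 89 HPC and 12 of 79 Endo cells (226 against 5.52 CPM), and 71 HPC exceeded the highest Endo cell. *Ptpn6*, a phosphatase that restrains blood receptors, was found in 86 of 89 HPC and 32 of 79 Endo cells, so it was less selective. In Endo the genes ran from *Cd36* (-6.68) to *Bgn* (-4.12). *Flrt2*, a guidance receptor, was found in 13 of 89 HPC and 79 of 79 Endo cells (6.82 against 347 CPM), *Fmo1*, a monooxygenase, in 20 of 89 HPC and 76 of 79 Endo cells, and *Spry4*, a brake on receptor kinases, in 10 of 89 HPC and 72 of 79 Endo cells. The other genes were *Pcdh17*, *Meis2*, *Plac1*, *Plekhg1*, *Gm37736*, *Rgl1*, *Parva*, *Dab2*, *Asb4*, *Amotl1* and *Mmp2*, with *Stab2*, *Mcam*, *Kitl* and *Lama4* from the lists above. *Gm37736* overlaps *Tcf7l1* on the same strand, so its reads cannot be assigned with certainty.

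Imprinted genes stood out among the leading Endo genes. *Peg3* (chr7:6703892-6730431, minus strand), a paternally expressed zinc finger gene, ranged from 0 through a median of 24.4 to 453 CPM in HPC and from 209.8 through a median of 1699.6 to 6913 CPM in Endo. Of the Endo cells 77 of 79 exceeded the highest HPC, and 80 of 89 HPC lay below the lowest Endo cell. It was found in 64 of 89 HPC and 79 of 79 Endo cells. No other evaluated gene had as many Endo cells above the highest HPC. In the 49 HPC and 20 Endo cells without transcripts of both sexes its means were 78.1 and 1622 CPM (log2 ratio -4.36). Of 13 evaluated imprinted genes 6 were higher in Endo (against 6.83% of all evaluated genes) and 0 in HPC (median -1.94): *Peg3*, *Meg3*, *Plagl1* (61.4 against 595 CPM), *Peg10* (6.58 against 63.2 CPM), *Igf2* and *Mest* (494 against 2850.0 CPM). *Impact* (388 against 435 CPM) and *Grb10* (log2 ratio -0.65) were in common, so the difference did not take in the whole list. In neighbouring blood populations of the series *Peg3* averaged 135.8 CPM in E8.25 HPC, 28.3 in E8.5 megakaryocytes (Mk, 37 cells) and 70.4 in EryP.

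Of the 10 leading Endo genes, 4 came from 1 interval of chromosome 12, from *Dlk1* to *Mirg* (GRCm38, 297 kb). It holds a maternally expressed cluster of long non-coding RNAs on the plus strand and the protein-coding genes *Dlk1* and *Rtl1*. In order along the plus strand these were *Meg3* (109541001 to 109571726), *Rian* (109603940 to 109661716), *Gm37899* (109668869 to 109677585) and *B830012L14Rik* (109695586 to 109702587). *Meg3* was found in 20 of 89 HPC and 79 of 79 Endo cells at 4.02 against 157.9 CPM, and 79 HPC lay below the lowest Endo cell. Without the cells with transcripts of both sexes its HPC mean was 1.67 CPM. *Rian* averaged 10.9 against 465 CPM, *Gm37899* 4.45 against 276 CPM and *B830012L14Rik* 13.0 against 353 CPM. *B830012L14Rik* had a median of 0 CPM in HPC and was found in 3 of them, 1 of which reached 944 CPM. Of the annotated genes of the interval 10 were in the table and 4 evaluated, all 4 of them higher in Endo. *Dlk1*, at its start, was near 0 in both (0.0978 against 0.191 CPM), and *Rtl1*, on the minus strand, was at 0.0453 against 2.55 CPM. *Mirg*, at the end of the interval, was found in 1.12% of HPC and 41.8% of Endo cells. The 4 transcripts lie in a row, and whether they are separate genes or 1 long transcript was not tested, so they are not 4 independent results. In E8.25 HPC *Meg3* averaged 8.47 CPM, and it had no count in E8.5 Mk or EryP.

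**Figure D4:**
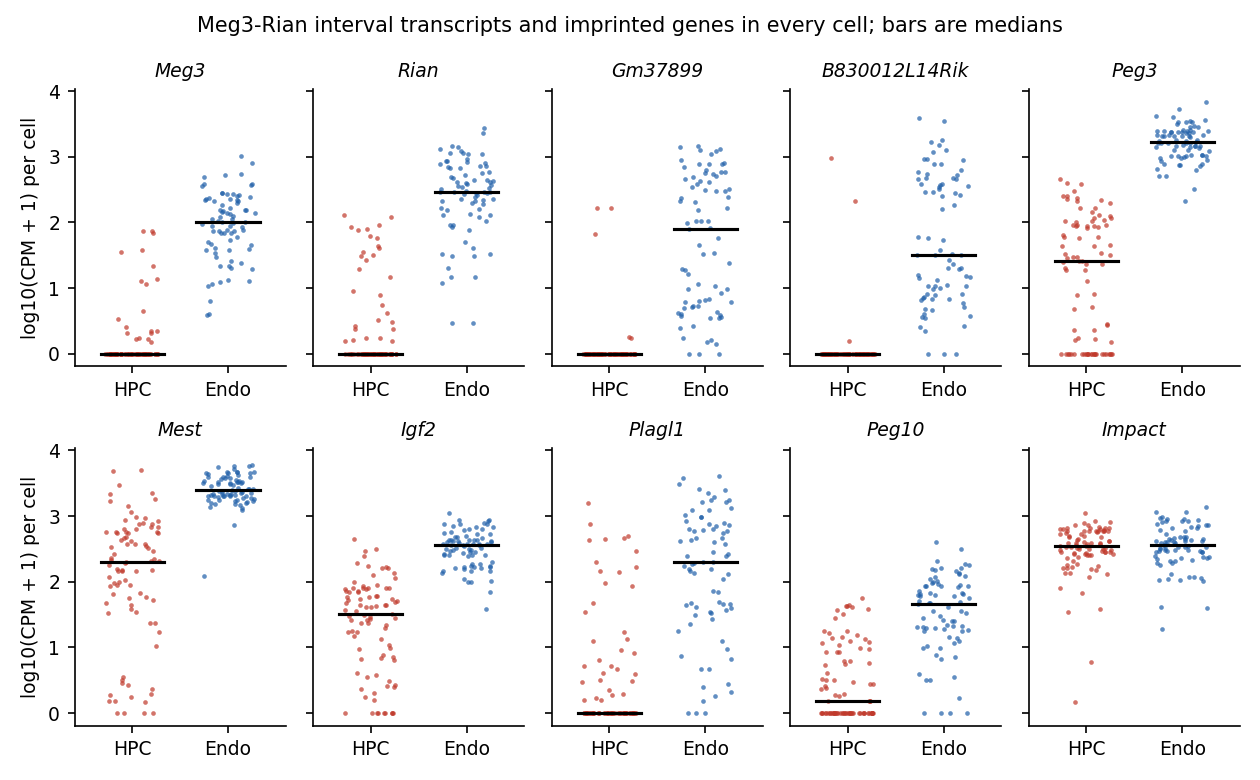
Level of the 4 chromosome 12 transcripts and of 6 imprinted genes in every cell of HPC (red, 89 cells) and Endo (blue, 79 cells), as log10(CPM + 1), with medians as bars. All but *Impact* are lower in most HPC, and *Peg3* shows the least overlap.

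Genes of an endothelial and a haematopoietic list were detected in the same wells. Of 28 endothelial junction and surface genes, an HPC carried 5 to 26 (median 18) and an Endo cell 22 to 27 (median 25). Of 28 haematopoietic factors, an HPC carried 9 to 24 (median 20) and an Endo cell 5 to 14 (median 9), and 86 HPC carried more than any Endo cell. This list includes 7 genes held in common and *Ets1*, which was higher in Endo. Their number in an Endo cell therefore need not reflect a blood programme. With 10 counts required, the medians were 13 and 24 for endothelial genes and 16 and 7 for haematopoietic factors. *Cdh5* and *Runx1* were both at 10 counts or more in 74 HPC (83.1%, exact 95% interval 73.7 to 90.2) and 10 Endo cells (12.7%, 6.24 to 22.0). *Cdh5* and *Gata1* were both so in 41 HPC (46.1%) and 0 Endo cells, and *Kdr* and *Gfi1b* in 69 HPC and 1 Endo cell. Among the cells without transcripts of both sexes, 40 of 49 HPC and 4 of 20 Endo cells had *Cdh5* with *Runx1*, and 21 HPC had *Cdh5* with *Gata1*. Both populations were sorted for CDH5, *Cdh5* is a member of the endothelial list, and *Runx1* alone reached 10 counts in 97.8% of HPC. The pair of *Cdh5* and *Runx1* thus largely follows from the gate and from each gene alone. In the other pairs, *Gata1* by itself reached 10 counts in 54 HPC and 0 Endo cells, and *Gfi1b* by itself in 73 HPC and 1 Endo cell. The Endo values of those pairs were therefore set by *Gata1* and *Gfi1b*. Wells with more than 1 cell cannot be told apart from cells with both programmes by these counts.

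The summed endothelial level ran from 46.1 through a median of 1576 to 9572 CPM in HPC and from 1458 through 6971 to 13025 CPM in Endo. At the lowest Endo cell or above it lay 45 HPC, and 44 lay below. That cell stood apart, since the second lowest Endo cell had 3641 CPM, a level reached by 9 HPC. At the Endo median or above lay 2 HPC, and 12 Endo cells exceeded all HPC. The highest HPC, which set this limit, had 5319 genes and 35.2% mitochondrial counts. Its scaled total was 2.48e+06 CPM, against a median of 996407 in HPC, and the next HPC had an endothelial sum of 8069 CPM. For haematopoietic factors the summed medians were alike, 2276 CPM in HPC and 2299 in Endo, with *Ets1* included. Without *Ets1*, a choice made after seeing the data, they were 1915 and 752 CPM. Of the 25 leading HPC genes an Endo cell had 0 to 9 at 10 counts or more (median 2), and of the 25 leading Endo genes an HPC had 0 to 17 (median 3). In 7 Endo cells and 7 HPC, respectively, none reached 10 counts. These genes were chosen by their ratios in the same cells, so low numbers in the other population follow from that choice.

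**Figure D5:**
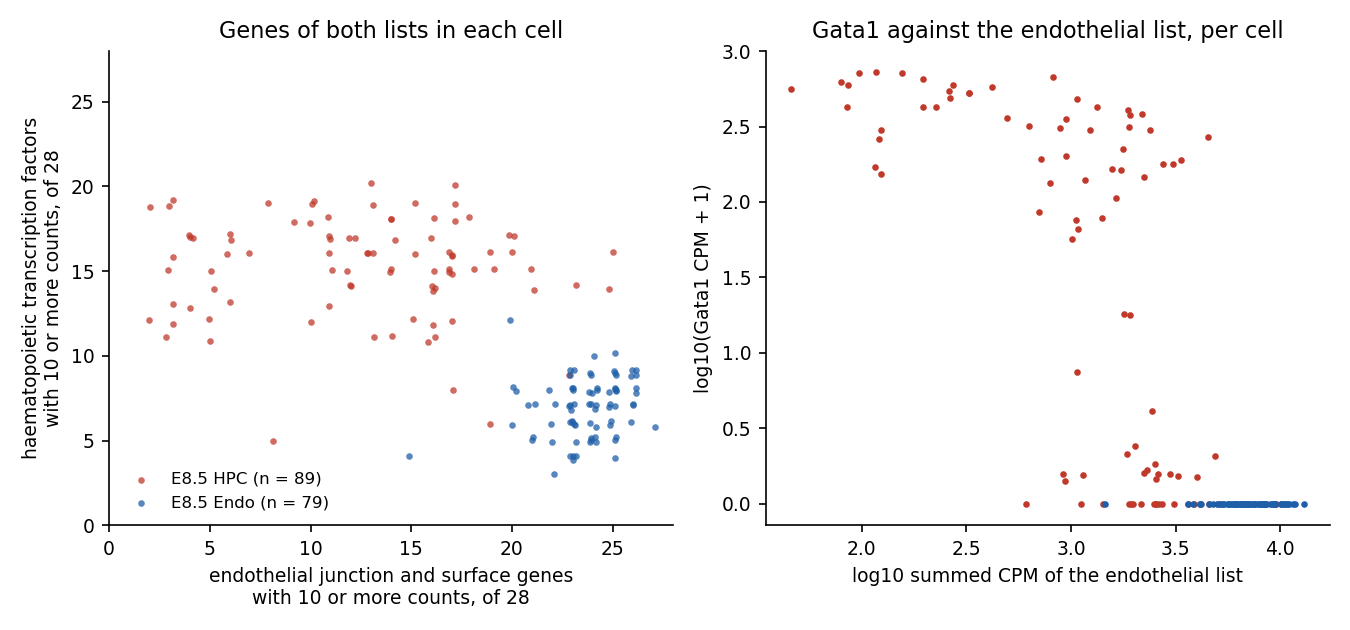
Left, number (points offset slightly) of endothelial genes (horizontal axis) and haematopoietic factors (vertical axis) with 10 or more counts in each cell, of 28 each; right, log10(*Gata1* CPM + 1) against the log10 summed CPM of the endothelial list in each cell, with HPC in red (89 cells) and Endo in blue (79 cells). HPC spread from 2 to 25 endothelial genes, and *Gata1* is high in HPC with low endothelial sums and at 0 in Endo.

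Within the 89 HPC, levels of single genes were set against the log2 summed endothelial level as a description. The cells share 1 library lane, and the sum had Pearson r = -0.04 with the number of genes detected and -0.02 with total counts. *Gata1* (-0.65), *Sptb* (-0.65), *Hbb-bh1* (-0.61), *Tubb1* (-0.60) and *Fermt3* (-0.57) ran lower where endothelial genes ran higher. The 16 evaluated erythroid genes ranged up to *Slc25a37* (-0.02), and the 15 megakaryocyte genes from *Tubb1* to *Gng11* (0.70). *Lyve1* (0.72), *Mest* (0.68), *Hmga2* (0.68) and *Kdr* (0.66), none of them in the sum, ran with it. Evaluated myeloid genes ranged from *Csf2rb* (-0.27) through *Calr* (0.02), *Mpo* (0.22) and *Csf1r* (0.26) to *Alox5ap* (0.59) and *Fcgr3* (0.62). *Runx1* (-0.22), *Myb* (-0.09), *Fli1* (0.03) and *Kit* (0.16) were close to level across HPC. *Peg3* (-0.09) and *Rian* (0.22) also had low values, although they were among the leading Endo genes. In E8.25 HPC (73 cells, another lane of the series), *Gata1* averaged 204 CPM, *Cdh5* 248, *Plek* 629 and *Ptprc* 2.06.

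Factors named for the transition itself were split. Of 10 evaluated genes of that list 3 were higher in HPC (*Gfi1b*, *Runx1* and *Adgrg1*), 3 in Endo (*Zeb1*, *Vim* and *Acta2*) and 3 were in common. *Zeb1* and *Zeb2*, related repressors of epithelial genes, differed from each other: *Zeb1* averaged 33.1 against 209 CPM and was found in 51 of 89 HPC and 79 of 79 Endo cells, whereas *Zeb2* averaged 196.96 against 115.5 CPM and was found in every cell. *Vim*, the intermediate filament of mesenchymal cells, averaged 391 against 1875 CPM, and *Kdm1a*, the demethylase partner of GFI1 proteins, was in common (103.9 against 108.1 CPM).

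Of 12 evaluated immediate early and heat shock genes 2 were higher in Endo (*Atf3* at 2.70 against 34.0 CPM and *Dusp1* at 37.8 against 160.9 CPM), 0 in HPC and 5 were in common (median -0.79). Over all evaluated genes 6.83% were higher in Endo and 60.7% in common. *Fos* averaged 29.5 against 52.3 CPM and *Jun* 18.3 against 26.2 CPM. The summed level of the list ran from 43.5 through 336 to 2761 CPM in HPC and from 162.5 through 794 to 4167 CPM in Endo, so the populations overlapped. Its part in the other results was not tested. Of the 7 mesoderm markers 1 was evaluated, *Foxf1*, and *Mesp1* and *Eomes* had no count in either population.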

How the data were processed

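Single-cell RNA-seq (SMARTer and Nextera XT libraries on the Fluidigm C1) was analysed for 89 E8.5 HPC and 79 E8.5 Endo cells. According to the methods, the authors used Rsubread for alignment against GRCm38 (Ensembl release 84) and featureCounts for gene assignment. Versions, strand setting and handling of multi-mapping reads are not given in the sources used here. The deposited counts are whole reads per gene without molecular identifiers, in the table the authors kept after filtering cells with scater. The second deposited table holds a signal, CPM that the authors scaled with pooled size factors from scran, so cells do not sum to one total. Here, means over cells, log2 ratios (pseudocount 1 CPM), shares with exact Clopper-Pearson intervals and floors of 3 counts were computed with Python 3.11.15, pandas 2.3.3, numpy 2.4.6 and scipy 1.17.1 after tests on simulated data; figures used matplotlib 3.10.9. Each population is 1 sample, so no test was made. Depth was 883020 counts or more per cell.

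Named genes were the 25 with the largest ratio in each direction (mean of 100 CPM or more and detection in 75% of cells or more of the higher population), the 10 of highest mean in each on-off set, the 10 regulators of highest geometric mean in common, and members of 34 gene lists; *F10*, *Isl1* and *Il17rd* were picked from the on-off sets after their values were seen. Lists, members and the comparison were chosen with earlier results of these data known. Promoters were taken from RefSeq tables on GRCm38.p6. Alternatives changed the pseudocount, scaling, filter, threshold, detection limit, depth and cells. Index pairs reused across lanes and wells with RNA of both sexes were counted. Genes with near-identical copies, *Gapdh* among them, can lose reads to multi-mapping. A few genes that the rule selects are not reported here.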

Additional observations from a re-analysis of the deposited data

How the results depend on the processing

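No paired analysis was possible because each population is 1 sample and the cell numbers pair nothing, and for the same reason no replicate could be left out. The 260 genes higher in HPC became 86 with a pseudocount of 10 CPM, 470 with the difference of mean log2 values, 469 with no filter, 36 with the stricter filter, 508 without cells with transcripts of both sexes (49 HPC and 20 Endo left), 960 at 2-fold and 140 at 8-fold. The 633 genes higher in Endo became 281 (pseudocount of 10 CPM), 953 (no filter), 215 (stricter filter), 1589 (2-fold) and 256 (8-fold), and the 5632 in common became 2123 under the stricter filter. The share of 4-fold genes that were higher in HPC moved from 29.1% to 45.2% with the difference of mean log2 values, which also moved the median of all genes to 0.39, and to 14.3% with the stricter filter. The 42 genes on in HPC became 7 (stricter filter), 23 (under 2% of Endo cells) and 68 (under 10%), and the 19 on in Endo became 2, 4 and 46 and, without cells with transcripts of both sexes, 39. Requiring 10 counts moved the genes per cell to 13 and 24 (endothelial) and 16 and 7 (haematopoietic), leaving out cells with transcripts of both sexes moved the Endo median of endothelial genes to 26, and leaving out *Ets1* moved the Endo sum of haematopoietic factors to 752 CPM. The median of the myeloid list was -0.97 under the stricter filter, with 1 gene left. Leaving out cells with transcripts of both sexes gave a share of 38.8% and kept 219 of the 260 and 511 of the 633 genes. Of the named genes evaluated, 55.7% moved with the difference of mean log2 values, 33.6% with a pseudocount of 10 CPM and 28.6% without cells with transcripts of both sexes. Up to 12 of 33 list medians moved. Under the 11 settings tried on the named genes 0 reversed, counting only genes 4-fold or more apart in the main comparison. Changes of sign in genes closer than that were not counted. Leaving out *Ets1*, cells with 50 or more counts of both sexes, or cells of few genes or high mitochondrial share was added after seeing the data. The causes of the other moves were not tested.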
